A study of Mus musculus with 12 samples.

Results

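The genes described here are 33 macrophage and leukocyte genes, taken by symbol from a list of receptors, complement subunits, lysosomal and cytoskeletal proteins and transcription factors of blood-derived immune cells. All 33 were among the 24391 gene symbols of the count files, and all 33 passed the expression filter that left 15958 genes for testing. The list was made by gene function, and the rule that selects its members uses no measured value. It was, however, drawn up with earlier results of these data known.

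Palatal shelves, the paired outgrowths that later fuse into the roof of the mouth, were taken from mouse embryos of strain C57BL/6 at E13.5 for RNA sequencing. The 4 groups were anterior palate after tamoxifen, anterior palate of controls, posterior palate after tamoxifen and posterior palate of controls, with 3 libraries each. Tamoxifen is a selective oestrogen receptor modulator; its dose and timing, and what the controls received, are not stated in the labels. All groups share strain and stage, and no transgene or other allele is named in the labels.

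Tissue macrophages of the embryo come from the yolk sac and the foetal liver. Their survival and growth depend on signalling through the receptor Csf1r, and their identity on the transcription factor PU.1 (gene Spi1). In developing tissues they take up dying cells and debris with scavenger receptors, mark material with complement C1q, and carry the surface proteins F4/80 (gene Adgre1) and CD206 (gene Mrc1). A whole palatal shelf is mostly mesenchyme and epithelium, so in these bulk libraries a lower or higher level of a macrophage gene can come from fewer or more cells or from less or more RNA per cell, which cannot be told apart.

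The libraries held 39.4 to 73.0 M counts, and the members were covered by between 0 and 43 counts per library for Cd163 and between 2872 and 6026 for Maf. Anterior tamoxifen replicate 1 was the deepest library at 73.0 M, and the next had 50.2 M. Levels are given as CPM, the count divided by the library's total in units of 1 M counts, scaled by the trimmed mean of M-values (TMM), and differences are log2 fold changes with their standard error (SE). The threshold for a call was 0.05 for the p of edgeR's quasi-likelihood test, adjusted over all 15958 genes after Benjamini and Hochberg. Fold changes across all genes moved with transcript length and GC content, so calls and the differences described in most detail are also given after removal of that trend from every library. Anterior tamoxifen replicate 2 had the lowest CPM of its group for 28 of the 33 members, and for 30 of 33 with the trend removed. Posterior tamoxifen replicate 2 was the lowest of its group for 21 members.

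All 4 groups held counts of the members. Per kb of the longest annotated transcript, and averaged over the 12 libraries, the highest levels were those of Maf at 13.9 CPM per kb, Coro1a at 12.01, Lcp1 at 10.2, C1qa at 9.76, Stab1 at 9.66, C1qc at 8.97 and C1qb at 8.74. The 3 C1q chains, which assemble in equal numbers into the recognition protein of the classical complement pathway, thus stood next to one another apart from Stab1. The lowest levels were those of the scavenger receptor gene Cd163 at 0.0694 CPM per kb, the inhibitory Fc receptor gene Fcgr2b at 0.138 and Cd48 at 0.188. Maf and Stab1 together made up 33.6 to 48.1% of the summed CPM of the members in a library. Maf is also expressed outside blood cells, for example in the lens, Stab1 and Lyve1 in endothelium, and Kit in melanoblasts and mast cells.

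**Figure D1:**
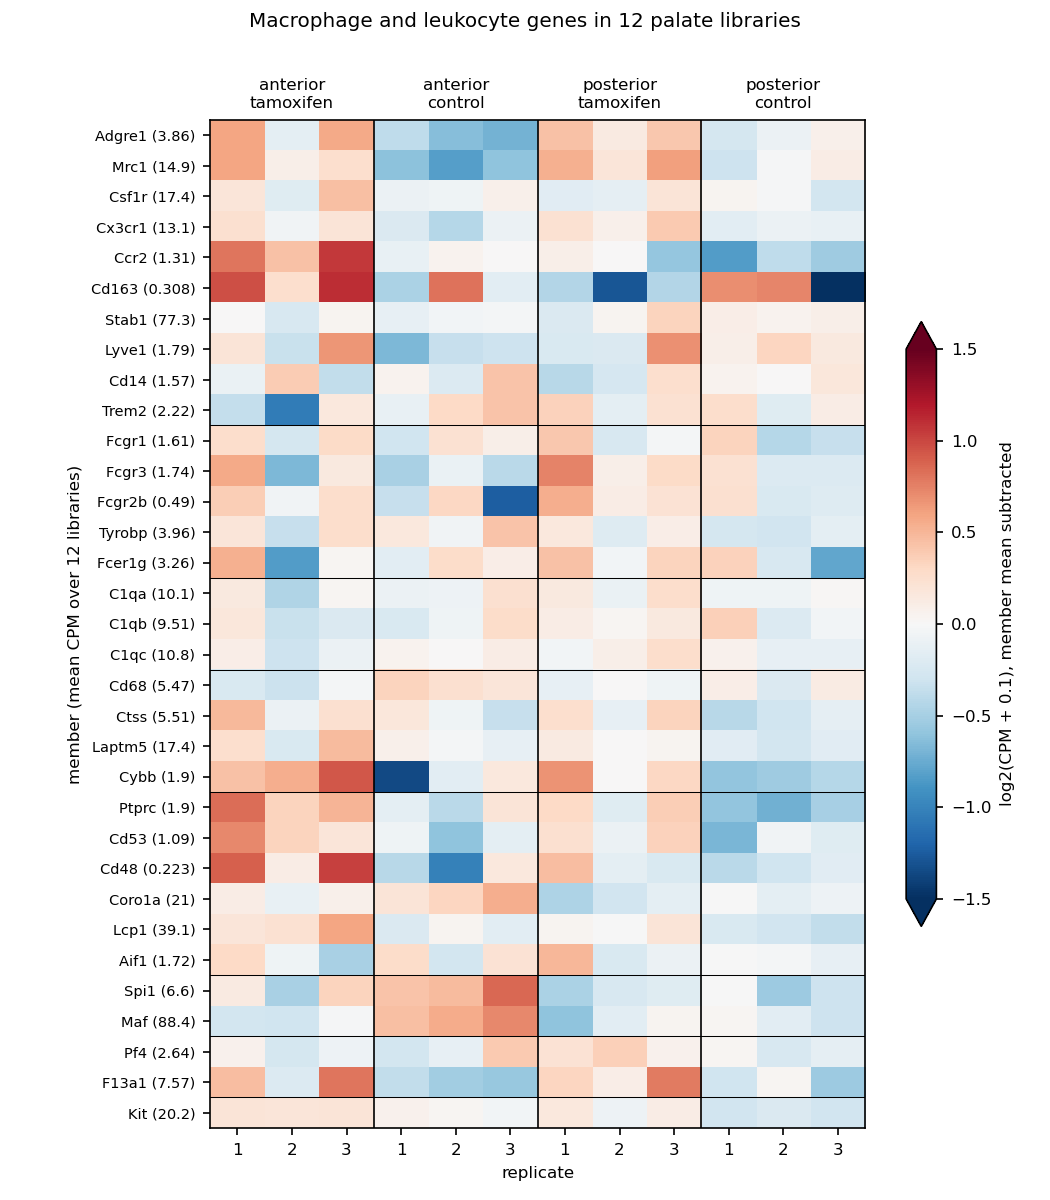
Level of each of the 33 members in each of the 12 libraries, as log2(CPM + 0.1) minus the member's own mean over the libraries, with members grouped by role and mean CPM in brackets. The columns are the 3 replicates of each group, and red means above the member's mean; anterior tamoxifen replicate 2 is bluer than its 2 companions for most members.

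Several defining markers of other leukocytes were at or near 0, while some genes of those lists had counts in every library. Of the mast cell and basophil genes, Fcer1a and Mrgprb1 had a count of 0 in all 12 libraries, Mcpt1 in 11, and Cpa3 lay between 0.189 and 1.18 CPM. Among lymphocyte genes Cd3d, Ms4a1 and Ncr1 were at 0 in 11 libraries. Other lymphocyte markers had counts in all 12 libraries. Cd4 lay between 0.0841 and 0.846 CPM, Cd79a between 0.149 and 0.652, Cd79b between 0.477 and 1.19 and Rag1 between 0.422 and 3.93. Gata2, a transcription factor of the mast cell list, lay between 4.75 and 35.6 CPM, and in the lymphocyte list Gata3 lay between 1.06 and 12.4 CPM and the kinase gene Lck between 5.29 and 9.76 CPM. The mast cell and basophil genes summed to 22.3 to 34.4 CPM in anterior tamoxifen libraries, 25.98 to 38.3 in anterior controls, 7.501 to 9.59 in posterior tamoxifen libraries and 7.998 to 10.2 in posterior controls, mostly Gata2. The lymphocyte genes summed to 15.8 to 21.2 CPM in anterior tamoxifen libraries, 22.0 to 24.0 in anterior controls, 12.2 to 13.2 in posterior tamoxifen libraries and 10.5 to 11.7 in posterior controls. The neutrophil and monocyte granule genes summed to 5.63 to 7.89 CPM in anterior tamoxifen libraries, 9.07 to 12.4 in anterior controls, 2.49 to 6.92 in posterior tamoxifen libraries and 4.30 to 6.47 in posterior controls. The 33 members summed to 349.6 to 445 CPM in anterior tamoxifen libraries, 401 to 450.03 in anterior controls, 364 to 446 in posterior tamoxifen libraries and 349.7 to 379.7 in posterior controls. The part of these other cells in the differences below was not tested.

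Promoter sequence was available for 25 of the 33 members, as windows from 250 bases before to 50 bases after an annotated transcript start (RefSeq, GRCm38.p6). The letters GAGGAAG, a core of the sites that PU.1 binds, were searched on both strands. They occurred in 14 of the 31 windows of members (45.2%) and in 13.6% of all 32851 windows in the table. In at least 1 window 11 of the 25 members had them, as did 15.4% of all genes. The windows of Kit overlap each other, as do those of Fcgr3, so their sites are counted more than once. The sequences of 5 windows are given, those of members called in the same direction in both parts of the palate, before or after removal of the trend, that hold the motif. Of the other members called in this way, Cx3cr1, Cybb, Ptprc and Lcp1 had no motif in any window, and C1qa had no window. Each is written 5′ to 3′ on the strand of its gene with the motif, or its reverse complement, in capitals. The first base of the motif lies 168 and 36 bases before the start in Mrc1 (chr2:14229164-14229463, plus strand), and 66 bases before and 18 bases after it in the first window of F13a1 (chr13:37050195-37050494, minus strand). In the second window of F13a1, at another annotated start, it lies 15 bases after the start (chr13:37049164-37049463, minus strand). It lies 39 bases before the start in Laptm5 (chr4:130913066-130913365, plus strand) and 194 bases before it in C1qc (chr4:136892865-136893164, minus strand). A match of letters is a description and no evidence of binding.
Mrc1: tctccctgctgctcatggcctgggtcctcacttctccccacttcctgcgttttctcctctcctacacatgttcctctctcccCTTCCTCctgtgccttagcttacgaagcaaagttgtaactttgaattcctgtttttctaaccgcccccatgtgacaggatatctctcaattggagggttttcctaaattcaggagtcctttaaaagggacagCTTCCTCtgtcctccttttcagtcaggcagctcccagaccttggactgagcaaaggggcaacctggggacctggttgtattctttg
F13a1, first window: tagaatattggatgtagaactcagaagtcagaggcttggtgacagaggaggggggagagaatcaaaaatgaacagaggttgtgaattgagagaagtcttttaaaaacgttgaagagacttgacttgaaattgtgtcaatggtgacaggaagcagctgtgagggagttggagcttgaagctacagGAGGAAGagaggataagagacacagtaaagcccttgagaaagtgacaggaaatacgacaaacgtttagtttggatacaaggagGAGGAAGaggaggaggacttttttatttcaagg
F13a1, second window: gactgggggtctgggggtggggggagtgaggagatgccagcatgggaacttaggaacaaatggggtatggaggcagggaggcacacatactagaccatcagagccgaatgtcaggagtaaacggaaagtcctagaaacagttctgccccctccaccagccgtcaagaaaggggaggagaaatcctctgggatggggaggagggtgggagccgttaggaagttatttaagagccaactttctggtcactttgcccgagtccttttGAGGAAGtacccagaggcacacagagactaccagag
Laptm5: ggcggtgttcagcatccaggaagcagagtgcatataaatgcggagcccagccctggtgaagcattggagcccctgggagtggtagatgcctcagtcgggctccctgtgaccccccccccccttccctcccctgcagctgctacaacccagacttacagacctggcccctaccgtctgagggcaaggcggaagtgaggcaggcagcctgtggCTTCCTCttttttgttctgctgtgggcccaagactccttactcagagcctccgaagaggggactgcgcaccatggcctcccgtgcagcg
C1qc: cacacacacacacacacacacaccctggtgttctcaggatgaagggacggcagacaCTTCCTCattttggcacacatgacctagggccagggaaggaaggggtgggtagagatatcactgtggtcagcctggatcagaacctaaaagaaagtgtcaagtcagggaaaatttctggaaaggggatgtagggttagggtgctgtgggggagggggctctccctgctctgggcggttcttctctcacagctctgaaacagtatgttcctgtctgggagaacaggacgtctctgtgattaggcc

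In the anterior palate, 10 members were higher and 4 lower after tamoxifen than in controls, and 19 were not called. Among the whole set of 15958 genes 49.7% were called, 25.6% higher and 24% lower, so the share of called members, 14 of 33, was near that of all genes. The median log2 fold change of the members was 0.20, against -0.02 over all genes. The 3 tamoxifen values lay above the 3 control values for 10 members and below them for 4, where all genes had 28.7% above and 27.8% below. The number of higher members was 6 without anterior control replicate 2, without anterior tamoxifen replicate 1 or without anterior tamoxifen replicate 3, and 14 without anterior tamoxifen replicate 2. The number of lower members was 2 without anterior control replicate 3 and 1 without anterior tamoxifen replicate 2. The share of all genes called in these reduced fits is not given, so these counts describe no trait of the members. With the length and GC trend removed, 8 members were higher and 2 lower (all genes 16% and 16.5%), the median was 0.34, against 0.01 over all genes, and 5 members were called in the same direction both ways, Adgre1, Mrc1, Cd48 and Lcp1 higher and Maf lower.

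In the posterior palate, 7 members were higher and 0 lower after tamoxifen in edgeR's test, where 29% of all genes were called, 17.3% higher and 11.7% lower. At an unadjusted p under 0.05, 9 members and 6527 of the 15958 genes were counted in either direction. DESeq2 called 7 members, where over all genes it called 2992 higher and 2211 lower. For limma-voom these were 6 members, and 2808 higher and 1887 lower genes. The median log2 fold change was 0.27, against 0.02 over all genes. In 11 members the 3 tamoxifen values lay above the 3 control values and in 0 below, where all genes had 26.5% and 21.5%. The number of higher members was 2, 4 and 3 without posterior control replicate 1, 2 or 3 in turn. It was 1 without posterior tamoxifen replicate 1 or 3. These counts, too, have no share of all genes beside them. With the trend removed 4 members were higher (7.76% of all genes) and 0 lower (10.2%), none of them among the 7, and the median was 0.29, against a value of 0.00 over all genes. In all, 6 members were higher in both parts, Mrc1, Cx3cr1, Cybb, Ptprc, Lcp1 and F13a1, and 0 were lower in both. Over all genes 15.4% were higher and 10.7% lower in both parts, so the members' share of higher calls was near the background. After removal of the trend 3 members were higher in both parts, C1qa, C1qc and Laptm5, and 0 lower, against 5.83% and 8.37% of all genes.

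**Figure D2:**
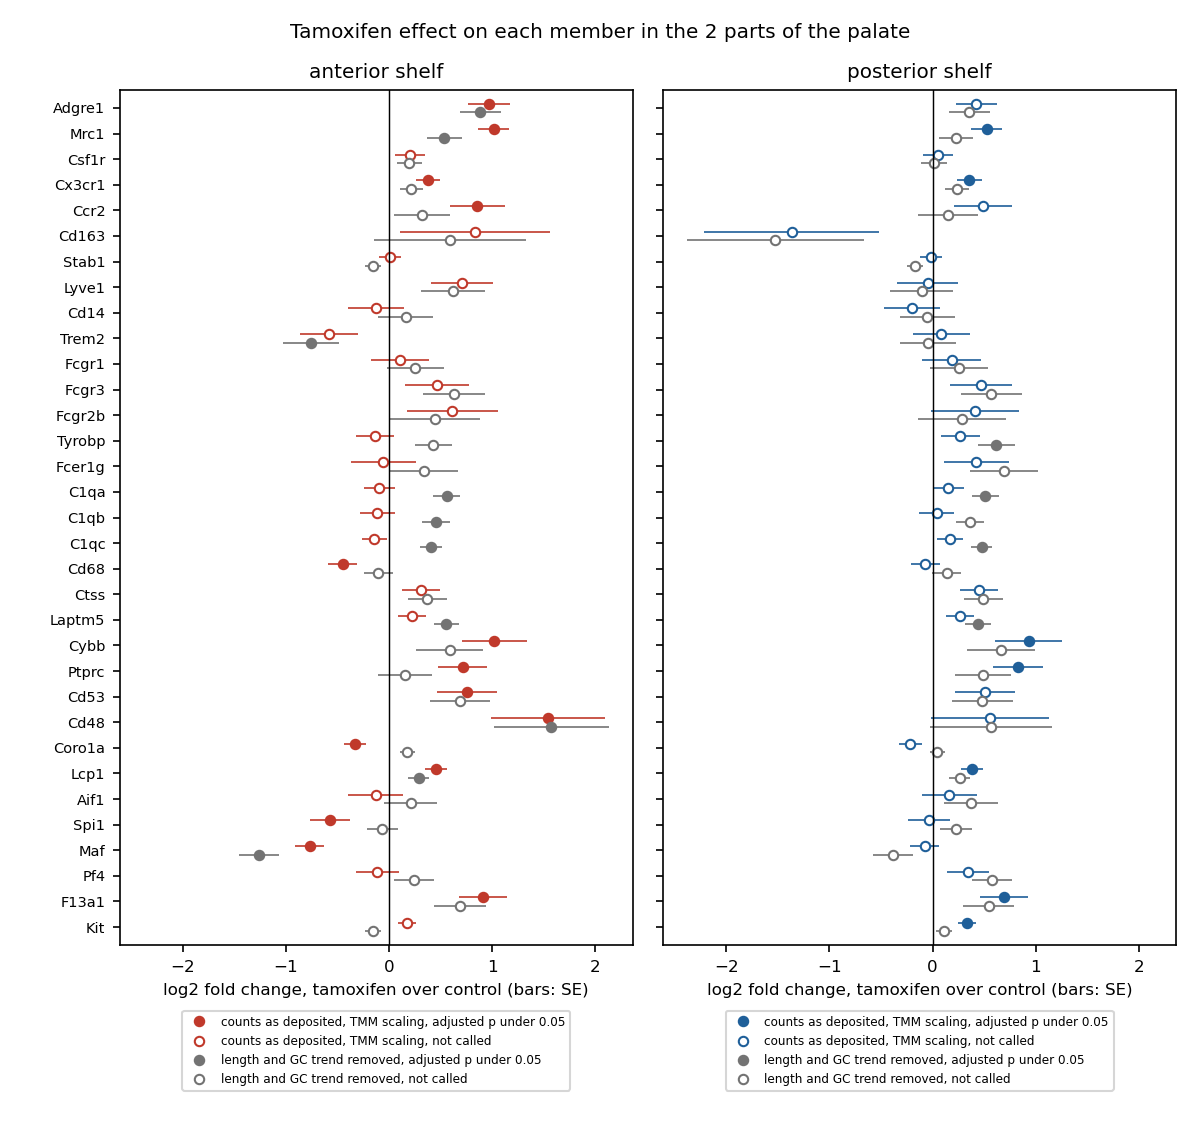
Log2 fold change of each member, tamoxifen over control, in the anterior (left) and posterior (right) shelf, with bars for the SE. Coloured points are from the counts as deposited and grey points after removal of the length and GC trend, and filled points had an adjusted p under 0.05; removal of the trend shifts the 3 C1q genes to the right in both panels and Mrc1, Ccr2, Ptprc and Maf to the left.

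Among the surface receptors, Mrc1 and Adgre1 were called higher in the anterior palate with and without the trend. Mrc1, the mannose receptor CD206, had 21.4, 15.04 and 16.9 CPM in anterior tamoxifen libraries, against 9.24, 7.98 and 9.30 CPM in anterior controls. In the posterior palate it had 20.6, 16.1 and 21.8 CPM after tamoxifen and 11.4, 13.99 and 15.3 CPM in controls. Every tamoxifen library was above every control library of its own part. The anterior rise was 2.02-fold (log2 1.01, SE 0.15, adjusted p = 5.85e-05, edgeR) and was called without each library in turn, and the posterior rise was 1.44-fold (log2 0.52, SE 0.15, adjusted p = 0.0154). The posterior call was lost without posterior control replicate 1 (log2 0.41), posterior tamoxifen replicate 1 (0.47) or posterior tamoxifen replicate 3 (0.44). Removal of the trend left 0.53 (adjusted p = 0.0247) in the anterior and 0.23 (adjusted p = 0.373) in the posterior palate.

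Adgre1, the adhesion receptor F4/80 by which mouse macrophages are commonly stained, had 5.62, 3.33 and 5.501 CPM in anterior tamoxifen libraries, against 2.82, 2.35 and 2.22 CPM in anterior controls. It had 5.04, 4.06 and 4.91 CPM in posterior tamoxifen libraries and 3.07, 3.46 and 3.90 CPM in posterior controls. The groups did not overlap in either part of the palate. The anterior rise was 1.96-fold (log2 0.97, SE 0.20, adjusted p = 0.000951, edgeR), remained 0.89 (adjusted p = 0.00287) with the trend removed, and was called without each library in turn. The posterior difference of 0.43 (SE 0.20) was not called (adjusted p = 0.120), and it was 0.36 with overlapping values once the trend was removed (adjusted p = 0.228).

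The chemokine receptors Cx3cr1, which binds fractalkine, and Ccr2, which draws monocytes to its ligand Ccl2, were called in the anterior palate. Cx3cr1 had 15.3, 12.5 and 14.8 CPM in anterior tamoxifen libraries and 11.1, 9.60 and 12.2 CPM in anterior controls, and 15.1, 13.6 and 16.9 CPM in posterior tamoxifen libraries and 11.6, 12.2 and 11.9 CPM in posterior controls. The separation was complete in both parts but small, at log2 0.37 (SE 0.12, adjusted p = 0.0155, edgeR) in the anterior and 0.36 (SE 0.12, adjusted p = 0.0339) in the posterior palate. The posterior call was lost in 8 of the 12 fits that left out 1 library, with log2 values of 0.27 to 0.43 over the 12, and the anterior call without anterior control replicate 2 (0.29), anterior tamoxifen replicate 1 (0.32) or anterior tamoxifen replicate 3 (0.34). Ccr2 had 2.18, 1.68 and 2.64 CPM in anterior tamoxifen libraries and 1.11, 1.26 and 1.22 CPM in anterior controls, which did not overlap. Its anterior difference was 0.86 (SE 0.26, adjusted p = 0.0129) and was not called without anterior tamoxifen replicate 3 (0.69). In the posterior palate Ccr2 had 1.29, 1.21 and 0.781 CPM after tamoxifen and 0.631, 0.907 and 0.808 CPM in controls, and these overlapped (log2 0.49, adjusted p = 0.199). Neither receptor was called after removal of the trend, Cx3cr1 at 0.21 and 0.24 and Ccr2 at 0.32 and 0.15 in the anterior and posterior palate.

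Csf1r, the receptor for the growth factors Csf1 and IL-34, was not called in either part. It had 19.5, 15.2 and 23.6 CPM in anterior tamoxifen libraries and 16.2, 16.5 and 18.2 CPM in anterior controls, and 15.4, 15.7 and 19.8 CPM in posterior tamoxifen libraries and 17.8, 17.05 and 14.2 CPM in posterior controls. The groups overlapped in both parts, with an anterior difference of 0.20 (SE 0.14, adjusted p = 0.273, edgeR) and a posterior one of 0.05 (SE 0.15, adjusted p = 0.813), and 0.19 and 0.01 with the trend removed. Stab1, a scavenger receptor of macrophages and endothelium, had 77.0, 65.0 and 79.1 CPM in anterior tamoxifen libraries and 70.6, 74.5 and 75.3 CPM in anterior controls, and 66.2, 78.9 and 96.6 CPM in posterior tamoxifen libraries and 82.5, 79.5 and 81.9 CPM in posterior controls. Its groups overlapped, with log2 differences of 0.01 (SE 0.11) in the anterior and -0.01 (SE 0.11) in the posterior palate. Once the trend was removed, all 3 anterior tamoxifen values of Stab1, 73.5, 70.2 and 75.5 CPM, lay below the 77.3, 80.3 and 87.1 CPM in anterior controls, without a call (log2 -0.16, adjusted p = 0.118, edgeR), and the posterior difference was -0.17 (adjusted p = 0.124).

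The remaining 4 receptors were not called by edgeR in either part on the counts as deposited. Lyve1, a hyaluronan receptor shared with lymphatic endothelium, averaged 2.03 ± 0.716 CPM in anterior tamoxifen libraries and 1.24 ± 0.176 CPM in anterior controls (SD, n = 3 each; log2 0.71, adjusted p = 0.0638, edgeR). DESeq2 called this difference (adjusted p = 0.0487), limma-voom did not (adjusted p = 0.0981), and with the trend removed it was 0.62 (adjusted p = 0.140, edgeR). Prox1, the transcription factor that sets lymphatic identity, averaged 11.4 ± 2.23 CPM in anterior tamoxifen libraries and 4.18 ± 1.44 CPM in anterior controls. It was called (log2 1.46, adjusted p = 3.94e-05, edgeR). The lymphatic endothelium list holds both Prox1 and Lyve1, and 2 of its 6 tested genes were higher, where 25.6% of all genes were. In the posterior palate Prox1 was also called higher (log2 0.70, adjusted p = 0.0188, edgeR), while Lyve1 was not called (-0.05). Of the list 1 gene was higher there, against 17.3% of all genes. Without the trend the anterior palate still had 2 higher list genes, and the posterior one had 0 higher and 1 lower. Over all genes 16% were then higher in the anterior palate, and 7.76% higher and 10.2% lower in the posterior one. Whether lymphatic endothelium has a part in the Lyve1 difference was not tested. Trem2, a lipid receptor that signals through Tyrobp, averaged 1.69 ± 0.717 CPM in anterior tamoxifen libraries and 2.52 ± 0.487 CPM in anterior controls, and those values overlapped. Trem2 was called lower with the trend removed (log2 -0.76, adjusted p = 0.0439), where its length was that of its longest transcript of 4784 bases; with its longest protein-coding transcript of 1088 bases the difference was -0.01 (adjusted p = 0.984). The lipopolysaccharide co-receptor gene Cd14 averaged between 1.42 ± 0.380 CPM in posterior tamoxifen libraries and 1.68 ± 0.394 CPM in anterior controls, and the haemoglobin scavenger gene Cd163 reached at most 0.643 CPM.

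Fc receptors and their adaptors showed no call on the counts as deposited in either part, 0 of 5 members in edgeR, DESeq2 and limma-voom and 0 at an unadjusted p under 0.05. The activating receptors Fcgr1 and Fcgr3, which bind immunoglobulin G, were both low. Fcgr1 averaged 1.72 ± 0.367 CPM in anterior tamoxifen libraries and 1.60 ± 0.308 CPM in anterior controls, and Fcgr3 1.80 ± 0.758 CPM in anterior tamoxifen libraries and 1.32 ± 0.203 CPM in anterior controls (SD, n = 3 each). Their groups overlapped, as did those of the inhibitory Fcgr2b, which reached at most 0.723 CPM. Fcer1g and Tyrobp are the adaptors that carry the immunoreceptor tyrosine-based activation motif. Tyrobp had 4.46, 3.04 and 4.70 CPM in anterior tamoxifen libraries and 4.38, 3.77 and 5.29 CPM in anterior controls, which overlapped (log2 -0.14; 0.43 with the trend removed, not called). It had 4.38, 3.40 and 4.19 CPM in posterior tamoxifen libraries, against 3.24, 3.18 and 3.52 CPM in posterior controls, which overlapped in 1 pair of values (log2 0.27, SE 0.19, adjusted p = 0.307, edgeR). Once the trend was removed it had 5.04, 3.88 and 4.78 CPM after tamoxifen and 2.78, 2.97 and 3.17 CPM in controls, without overlap, and was called (log2 0.62, SE 0.18, adjusted p = 0.0239). The longest annotated transcript of Tyrobp has 597 bases.

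The 3 complement C1q genes were not called on the counts as deposited, and were called higher in part after removal of the trend. C1qa had 11.1, 7.36 and 10.3 CPM in anterior tamoxifen libraries and 9.46, 9.55 and 11.9 CPM in anterior controls, and 11.2, 9.40 and 12.1 CPM in posterior tamoxifen libraries and 9.61, 9.60 and 10.2 CPM in posterior controls. C1qb had 10.6, 7.43 and 8.05 CPM in anterior tamoxifen libraries and 8.001, 8.97 and 11.4 CPM in anterior controls, and 10.1, 9.63 and 10.4 CPM in posterior tamoxifen libraries and 12.1, 8.14 and 9.16 CPM in posterior controls. C1qc had 11.5, 8.66 and 10.1 CPM in anterior tamoxifen libraries and 11.1, 10.8 and 11.6 CPM in anterior controls, and 10.5, 11.4 and 12.9 CPM in posterior tamoxifen libraries and 11.2, 9.84 and 9.87 CPM in posterior controls. Values of tamoxifen and control libraries overlapped for all 3 genes in both parts, and the summed C1q level was 23.5 to 33.3 CPM in anterior tamoxifen libraries, 28.6 to 34.9 in anterior controls, 30.5 to 35.5 in posterior tamoxifen libraries and 27.6 to 32.9 in posterior controls. None was called on these counts, with log2 differences from -0.14 to -0.10 in the anterior and from 0.04 to 0.17 in the posterior palate.

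Removal of the length and GC trend turned the sign of the anterior C1q differences and separated the groups. C1qa then had 13.3, 9.73 and 12.4 CPM in anterior tamoxifen libraries, against 8.06, 7.93 and 8.16 CPM in anterior controls, and 13.7, 10.4 and 13.46 CPM in posterior tamoxifen libraries, against 8.08, 9.35 and 8.93 CPM in posterior controls. The log2 differences were 0.56 (SE 0.13, adjusted p = 0.00339, edgeR) and 0.51 (SE 0.13, adjusted p = 0.0124). For C1qc they were 0.41 (adjusted p = 0.00644) in the anterior and 0.48 (adjusted p = 0.00525) in the posterior palate, and for C1qb 0.46 (adjusted p = 0.0160) and 0.37 (adjusted p = 0.0703). All 3 transcripts are short and rich in G and C, C1qa with 1040 bases and a GC content of 59.5%. Whether the trend is technical was not tested.

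Of the lysosomal and oxidase genes, Cybb was higher in both parts and Cd68 lower in the anterior one. Cybb, the catalytic subunit of the phagocyte NADPH oxidase, had 2.38, 2.57 and 3.42 CPM in anterior tamoxifen libraries and 0.619, 1.55 and 1.94 CPM in anterior controls, and 2.83, 1.74 and 2.19 CPM in posterior tamoxifen libraries and 1.11, 1.17 and 1.26 CPM in posterior controls. The groups did not overlap, and the rises were 2.02-fold (log2 1.02, SE 0.32, adjusted p = 0.0136, edgeR) and 1.91-fold (log2 0.93, SE 0.32, adjusted p = 0.0393). The anterior call was lost without anterior tamoxifen replicate 3 (0.85), the posterior call in 6 of 12 fits without 1 library (0.71 to 1.09 over the 12) and in limma-voom, and both with the trend removed (0.59 and 0.66). Cd68, a lysosomal membrane glycoprotein used as a general macrophage marker, had 4.59, 4.32 and 5.32 CPM in anterior tamoxifen libraries, against 6.86, 6.41 and 6.16 CPM in anterior controls. All 3 tamoxifen values were below the controls (log2 -0.45, SE 0.14, adjusted p = 0.0148), and with the trend removed the difference was -0.11 (adjusted p = 0.601). Its anterior call was also lost without anterior control replicate 1 (-0.40), anterior tamoxifen replicate 1 (-0.42) or anterior tamoxifen replicate 2 (-0.38).

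Posterior Cd68 overlapped, at 4.96, 5.44 and 5.20 CPM after tamoxifen and 5.83, 4.63 and 5.91 CPM in controls (log2 -0.07). Laptm5, a lysosomal transmembrane protein of leukocytes, had 20.6, 14.7 and 24.0 CPM in anterior tamoxifen libraries and 18.2, 16.9 and 15.9 CPM in anterior controls, and 19.0, 17.3 and 17.8 CPM in posterior tamoxifen libraries and 15.4, 14.3 and 15.4 CPM in posterior controls. The posterior groups did not overlap and the anterior ones did, and neither difference was called (log2 0.22 and 0.27). After removal of the trend Laptm5 was separated and called in both parts, at 0.55 (SE 0.12, adjusted p = 0.00245, edgeR) and 0.44 (SE 0.12, adjusted p = 0.0210). The cysteine protease gene Ctss averaged 6.37 ± 1.25 CPM in anterior tamoxifen libraries and 5.16 ± 0.928 CPM in anterior controls, and 6.08 ± 0.990 CPM in posterior tamoxifen libraries and 4.45 ± 0.460 CPM in posterior controls (SD, n = 3 each), with no call.

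**Figure D3:**
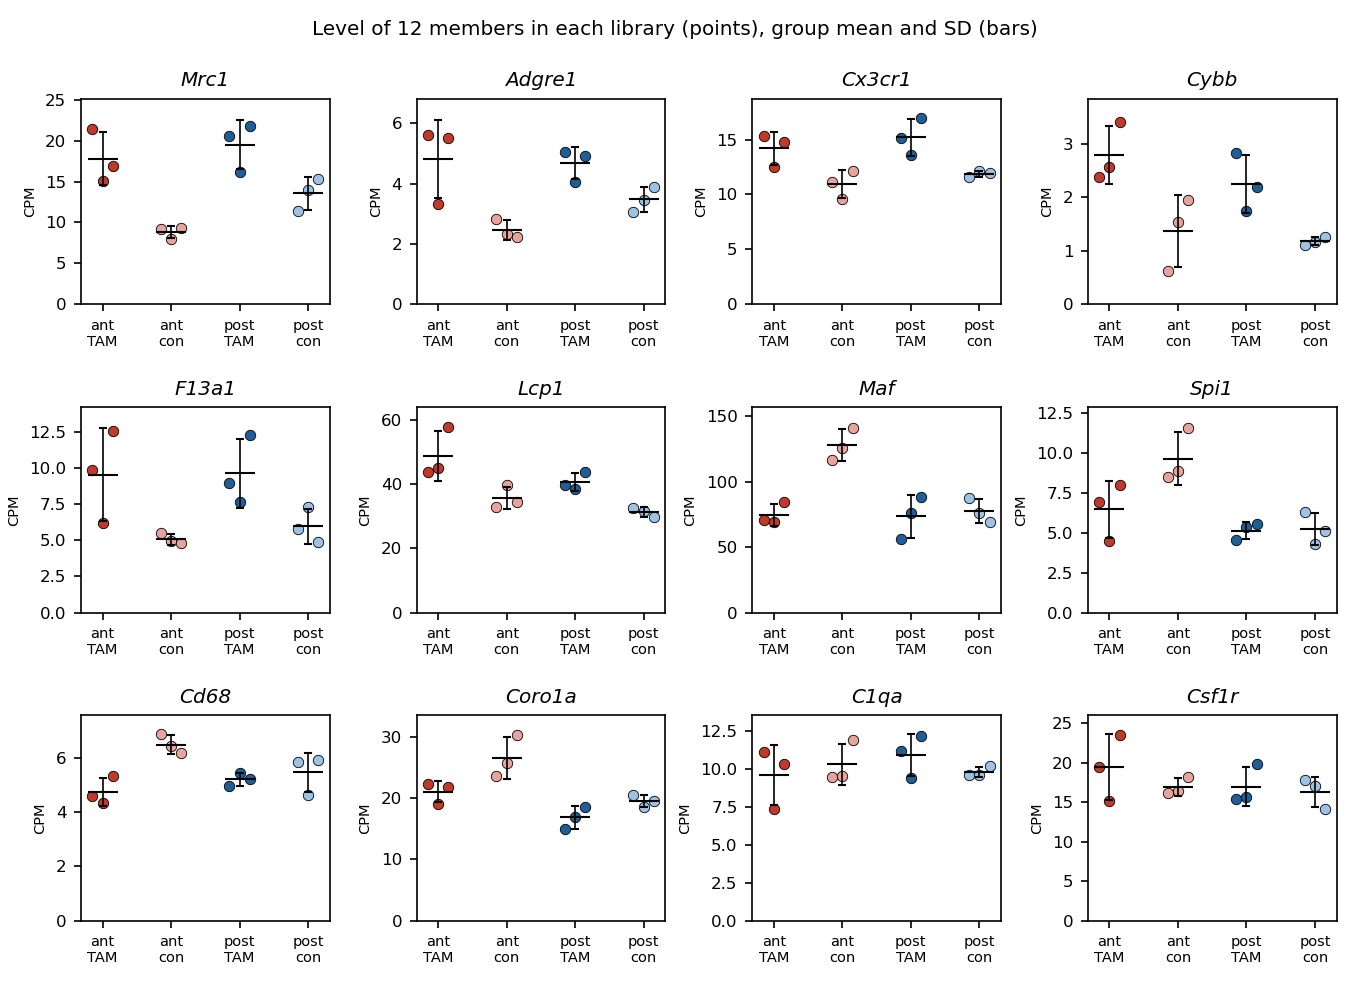
CPM of 12 members in each library (points), with the group mean and SD (horizontal and vertical bars), for anterior tamoxifen (ant TAM), anterior control (ant con), posterior tamoxifen (post TAM) and posterior control (post con). Mrc1, Adgre1, Cx3cr1, Cybb, F13a1 and Lcp1 lie higher in tamoxifen libraries in both parts, while Maf, Spi1, Cd68 and Coro1a lie lower in the anterior tamoxifen libraries; each axis starts at 0.

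The pan-leukocyte genes included calls in both directions. Ptprc, the phosphatase CD45 carried by nearly all leukocytes, had 3.29, 2.28 and 2.60 CPM in anterior tamoxifen libraries and 1.61, 1.33 and 2.06 CPM in anterior controls, and 2.23, 1.57 and 2.34 CPM in posterior tamoxifen libraries and 1.16, 1.05 and 1.24 CPM in posterior controls. The groups did not overlap (anterior log2 0.71, SE 0.24, adjusted p = 0.0194; posterior log2 0.83, SE 0.24, adjusted p = 0.0190, edgeR). The differences without the trend were 0.15 and 0.48 and neither was called. Its anterior call was lost without anterior control replicate 2 (0.58) or anterior tamoxifen replicate 1 (0.55), and its posterior call in 4 of 12 fits without 1 library (0.72 to 0.99 over the 12). The tetraspanin gene Cd53 had 1.79, 1.34 and 1.20 CPM in anterior tamoxifen libraries and 0.991, 0.653 and 0.937 CPM in anterior controls, without overlap. Its call (log2 0.76, SE 0.29, adjusted p = 0.0410) was lost with the trend removed (0.68), with the 6 anterior libraries alone (0.75), and without anterior control replicate 2 (0.60) or 3 (0.82) or anterior tamoxifen replicate 1 (0.56).

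Cd48, an adhesion protein of the signalling lymphocyte activation family, was covered by 2 to 34 counts per library. It had 0.458, 0.224 and 0.510 CPM in anterior tamoxifen libraries and 0.124, 0.0484 and 0.234 CPM in anterior controls, and the lowest tamoxifen value lay below the highest control value. It was called (log2 1.54, SE 0.55, adjusted p = 0.0291, edgeR), also with the trend removed (1.57, adjusted p = 0.0405), but not in 4 of 12 fits without 1 library (1.15 to 2.19 over the 12), without a filter on low counts (1.55) or with the 6 anterior libraries alone (1.54). In the posterior palate Cd53 had 1.25, 0.978 and 1.36 CPM after tamoxifen and 0.610, 1.003 and 0.912 CPM in controls, and Cd48 had 0.313, 0.170 and 0.156 CPM in posterior tamoxifen libraries and 0.126, 0.143 and 0.166 CPM in posterior controls. Both overlapped and neither was called.

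Lcp1 and Coro1a both encode actin-binding proteins of leukocytes, and in the anterior palate Lcp1 was called higher and Coro1a lower, where removal of the trend turned the sign of Coro1a. Lcp1, or L-plastin, had 43.7, 45.0 and 57.9 CPM in anterior tamoxifen libraries and 32.99, 39.7 and 34.4 CPM in anterior controls, and 39.7, 38.5 and 43.9 CPM in posterior tamoxifen libraries and 32.7, 31.5 and 29.7 CPM in posterior controls. Neither part overlapped. The anterior rise (log2 0.45, SE 0.11, adjusted p = 0.00205, edgeR) was called without each library in turn and at 0.29 with the trend removed (adjusted p = 0.0438), though not with protein-coding transcript lengths (0.22, adjusted p = 0.127). The posterior rise (log2 0.38, SE 0.11, adjusted p = 0.0145) was lost with the trend removed (0.26, adjusted p = 0.0930), and without posterior control replicate 3 (0.34) or posterior tamoxifen replicate 3 (0.32).

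Coro1a, coronin 1A, had 22.3, 19.1 and 21.7 CPM in anterior tamoxifen libraries and 23.5, 25.8 and 30.2 CPM in anterior controls. All 3 tamoxifen values were below the controls (log2 -0.33, SE 0.11, adjusted p = 0.0179, edgeR). With the trend removed it had 25.3, 24.4 and 24.8 CPM in anterior tamoxifen libraries, all above the 21.0, 22.1 and 22.9 CPM in anterior controls, and was not called (log2 0.18, adjusted p = 0.0715). The lower call was also lost without anterior control replicate 3 (-0.23) or anterior tamoxifen replicate 2 (-0.26). In the posterior palate Coro1a had 14.96, 16.9 and 18.6 CPM after tamoxifen and 20.5, 18.6 and 19.5 CPM in controls, which overlapped at the edge (log2 -0.22, adjusted p = 0.152; 0.04 with the trend removed). Aif1, the calcium-binding protein Iba1, averaged 1.63 ± 0.463 CPM in anterior tamoxifen libraries and 1.80 ± 0.368 CPM in anterior controls (SD, n = 3 each) and was not called in either part.

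Both transcription factors were lower in the anterior palate after tamoxifen and not called in the posterior one. Maf, a basic leucine zipper transcription factor, had 70.7, 69.4 and 84.6 CPM in anterior tamoxifen libraries, against 117, 126 and 141 CPM in anterior controls. In posterior tamoxifen libraries it had 56.1, 76.4 and 88.0 CPM, against 87.3, 76.3 and 69.0 CPM in posterior controls. The 3 anterior controls stood above all 9 other libraries. The anterior fall was 1.71-fold (log2 -0.77, SE 0.14, adjusted p = 0.000428, edgeR), was called without each library in turn, and was -1.26 (adjusted p = 0.000986) with the trend removed. The posterior difference was -0.08 (SE 0.14, adjusted p = 0.712), and -0.39 with the trend removed (adjusted p = 0.204).

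Spi1, which encodes PU.1, had 6.92, 4.48 and 7.94 CPM in anterior tamoxifen libraries, against 8.496, 8.83 and 11.5 CPM in anterior controls, without overlap. It had 4.51, 5.32 and 5.53 CPM in posterior tamoxifen libraries and 6.29, 4.30 and 5.08 CPM in posterior controls, which overlapped. The anterior difference was -0.57 (SE 0.20, adjusted p = 0.0235, edgeR). It was -0.07 (adjusted p = 0.769) with the trend removed, and not called without anterior control replicate 3 (-0.42) or anterior tamoxifen replicate 2 (-0.37). The posterior difference was -0.03 (adjusted p = 0.924), and 0.23 with the trend removed (adjusted p = 0.334). Spi1 has a GC content of 58.9%.

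Of the secreted members, F13a1 rose in both parts. F13a1, the A subunit of coagulation factor XIII and a marker of resident macrophages, had 9.90, 6.18 and 12.6 CPM in anterior tamoxifen libraries and 5.499, 4.93 and 4.80 CPM in anterior controls, and 8.99, 7.68 and 12.3 CPM in posterior tamoxifen libraries and 5.81, 7.28 and 4.87 CPM in posterior controls. Neither part overlapped, and the spread among tamoxifen libraries was wide. The rises were 1.88-fold (log2 0.91, SE 0.23, adjusted p = 0.00407, edgeR) and 1.61-fold (log2 0.69, SE 0.23, adjusted p = 0.0342). The anterior call held without each library in turn, and the posterior call was lost in 7 of 12 such fits (0.48 to 0.86 over the 12). Neither was called after removal of the trend, at 0.69 (adjusted p = 0.0516) and 0.54 (adjusted p = 0.152). Pf4, the chemokine platelet factor 4, which macrophages and megakaryocytes make, averaged 2.45 ± 0.293 CPM in anterior tamoxifen libraries and 2.66 ± 0.694 CPM in anterior controls, and 3.04 ± 0.319 CPM in posterior tamoxifen libraries and 2.40 ± 0.230 CPM in posterior controls (SD, n = 3 each), with no call.

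Kit, the receptor for stem cell factor, had 22.9, 22.8 and 23.0 CPM in anterior tamoxifen libraries and 20.9, 20.5 and 19.5 CPM in anterior controls, and 22.5, 19.0 and 21.6 CPM in posterior tamoxifen libraries and 16.4, 17.3 and 16.4 CPM in posterior controls. On the counts as deposited, tamoxifen values were above control values in both parts. The posterior rise was called (log2 0.33, SE 0.09, adjusted p = 0.00997, edgeR) and the anterior one was not (log2 0.17, adjusted p = 0.105). Removal of the trend turned the anterior order, at 21.0, 20.8 and 21.0 CPM in anterior tamoxifen libraries and 23.4, 22.9 and 23.9 CPM in anterior controls (log2 -0.16, adjusted p = 0.117, edgeR). The posterior call was lost with the trend removed (0.11) and without posterior tamoxifen replicate 1 (0.27). Kitl, which encodes its ligand, averaged 14.7 ± 0.841 CPM in anterior tamoxifen libraries and 9.36 ± 1.67 CPM in anterior controls (SD, n = 3 each; log2 0.65, adjusted p = 0.000719). Kitl averaged 16.7 ± 1.44 CPM in posterior tamoxifen libraries and 11.4 ± 1.32 CPM in posterior controls (log2 0.55, adjusted p = 0.00631), and in neither part was it called with the trend removed. Mitf, a melanocyte transcription factor, averaged 3.91 ± 0.600 CPM in anterior tamoxifen libraries and 2.39 ± 0.344 CPM in anterior controls (log2 0.71, adjusted p = 0.00304, edgeR). It was not called with the trend removed (0.31, adjusted p = 0.194), nor in the posterior palate (0.45). Sox10, another gene of the melanoblast list, was called lower in the anterior palate (-0.26) and higher with the trend removed (0.29). In the posterior palate Sox10 was called higher both ways (0.26 and 0.52). The melanoblast genes Tyr and Tyrp1 had a count of 0 in 10 and 9 of the 12 libraries. Sox10 lay between 22.3 and 29.5 CPM and Ednrb between 15.5 and 30.9 CPM. Which cells of the palate express Sox10 and Ednrb was not tested.

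Members with a low GC content were the ones with the more positive fold changes. Across the 33 members the Spearman correlation of log2 fold change with GC content was -0.76 in the anterior and -0.67 in the posterior palate, and with transcript length 0.31 and 0.09. Across 15852 genes the correlations with GC content were -0.52 and -0.41, and those with length 0.54 and 0.47. These values describe genes measured in the same libraries, which are not independent, and carry no test. Split at a length of 2 kb, a limit chosen after the values were seen, the 19 longer members had 8 higher and 2 lower calls in the anterior and 7 and 0 in the posterior palate. The 14 shorter members had 2 and 2 calls in the anterior and 0 and 0 in the posterior palate. Over all genes of at least 2 kb the shares called were 32.4% higher with 18.3% lower for the anterior palate, and 21.9% with 8.14% for the posterior palate. Over all shorter genes they were 2.26% higher with 44.4% lower for the anterior palate, and 1.29% with 24.1% for the posterior palate.

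**Figure D4:**
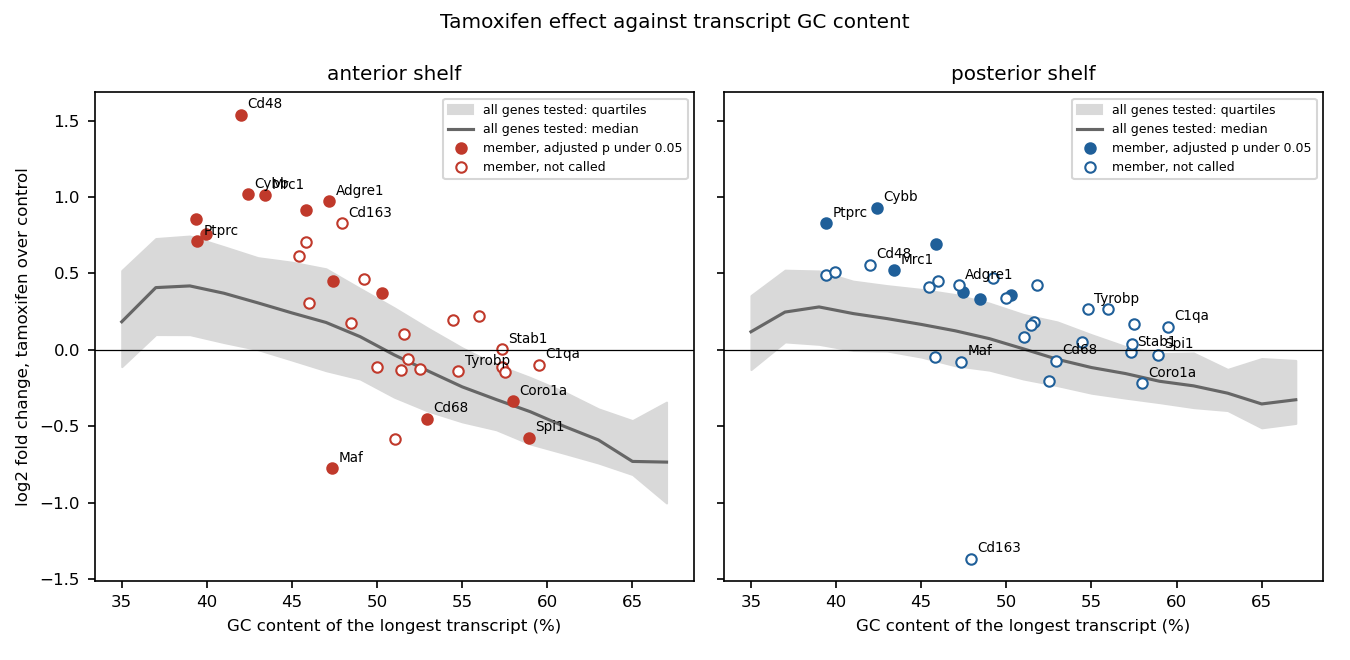
Log2 fold change of the 33 members, tamoxifen over control, against the GC content of the longest transcript, in the anterior (left) and posterior (right) shelf; filled points had an adjusted p under 0.05. The grey line and band are the median and quartiles of all genes tested in bins of GC content, and both the members and the band slope downwards.

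Without Maf, Stab1, Lyve1 and Kit, which other cell types also express, the other 29 members summed to 191 to 256 CPM in anterior tamoxifen libraries and 192 to 213 CPM in anterior controls, which overlapped. They summed to 199.8 to 237 CPM in posterior tamoxifen libraries and 180 to 192 CPM in posterior controls, which did not. Without the trend the sums were 203 to 264 CPM in anterior tamoxifen libraries and 186 to 197 CPM in anterior controls, and 201 to 238 CPM in posterior tamoxifen libraries and 176 to 184 CPM in posterior controls. Neither part then overlapped. Over all 33 members the sums without the trend were 355 to 438 CPM in anterior tamoxifen libraries and 424 to 497 CPM in anterior controls. In the posterior palate they were 355 to 421 CPM after tamoxifen and 352 to 380 CPM in controls. With all 33 members the groups thus overlapped in both parts. The separations of the 29 members therefore depend on the genes left out, among them Maf, which had the largest anterior fall. These genes were picked with earlier results of these data known, and other members may also be expressed outside macrophages. No test was made on these sums.

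No member was called in the comparison of the treatment effects, anterior minus posterior, where 0% of all genes were called by edgeR. At an unadjusted p under 0.05, 2 members and 2110 genes were counted, and DESeq2 and limma-voom each called 0 members. Over all genes DESeq2 called 96 higher and 83 lower, and limma-voom 0. Maf came first, with a difference of -0.69 (SE 0.20, adjusted p = 0.234, edgeR). Mrc1 followed at 0.49 (SE 0.21, adjusted p = 0.352). Spi1 had a difference of -0.54 (SE 0.28, adjusted p = 0.414). With the trend removed 0 members and 0% of all genes were called.

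Between the parts of the palate in controls, 4 members were higher and 1 lower in the anterior part, where 23.3% of all genes were called, 10.2% higher and 13.1% lower. Spi1, at the values given above, was 1.84-fold higher in anterior controls (log2 0.88, SE 0.20, adjusted p = 0.00419, edgeR) and Maf 1.65-fold higher (log2 0.72, SE 0.14, adjusted p = 0.00170). Coro1a was higher by 0.44 (adjusted p = 0.00741) and Kit by 0.28 (adjusted p = 0.0263). Mrc1 was lower in the anterior part, at log2 -0.62 (SE 0.15, adjusted p = 0.00716). All 5 were without overlap between the 2 parts. Of the 33 members, 10 lay wholly above in anterior controls and 4 wholly below, where all genes had 20.2% above and 21% below. With the trend removed the 4 higher calls remained (0.74, 0.91, 0.29 and 0.41 in the order above, where 27.1% of all genes were called, 14.5% higher), and Mrc1 was no longer called (-0.46, adjusted p = 0.0589). The call of Kit was lost in 7 of 12 fits without 1 library (0.22 to 0.31 over the 12).

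Under tamoxifen 1 member was higher and 0 lower in the anterior part in edgeR's test, where 17.8% of all genes were called, 7.6% higher and 10.2% lower. At an unadjusted p under 0.05, 4 members and 4701 of the 15958 genes were counted. DESeq2 and limma-voom each called 2 members. Over all genes DESeq2 called 1444 higher and 1859 lower, and limma-voom 1266 and 1735. The anterior values lay wholly above the posterior ones for 4 members and wholly below for 0, where all genes had 16.3% and 16.8%. The called member was Ccr2, at log2 0.98 (SE 0.26, adjusted p = 0.0142), also with the trend removed (0.96, adjusted p = 0.0145). This call was lost without anterior tamoxifen replicate 3 or posterior tamoxifen replicate 3 (0.79 to 1.13 over the 12 fits without 1 library). Coro1a was next at 0.32 (adjusted p = 0.0514), and was called by DESeq2 and limma-voom. Without the trend Coro1a (0.42, adjusted p = 0.0003) and Spi1 (0.44, adjusted p = 0.0439) were called as well, where 13.8% of all genes were higher. Maf, at 0.03 (SE 0.14), showed no detectable difference between the parts under tamoxifen. The treatment and region comparisons share libraries, so they are not independent of each other.

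A further 67 macrophage genes were tested, of which 10 rose and 10 fell in the anterior palate after tamoxifen, and 12 rose and 2 fell in the posterior palate. The shares of all genes given above, 25.6% higher and 24% lower in the anterior and 17.3% and 11.7% in the posterior palate, were higher than those of the list except for the posterior rises, which were near the background. Without the trend the counts were 8 and 2, and 7 and 1. All genes then had 16% higher and 16.5% lower in the anterior palate, and 7.76% and 10.2% in the posterior palate. Cfp, which encodes properdin, a stabiliser of the complement convertase, averaged 7.70 ± 0.644 CPM in anterior tamoxifen libraries and 16.9 ± 0.561 CPM in anterior controls (SD, n = 3 each). It was lower in both parts (anterior log2 -1.13, adjusted p = 2.64e-06; posterior log2 -0.66, adjusted p = 0.00122, edgeR), also with the trend removed (-0.69 and -0.41). Csf2ra, a subunit of the receptor for granulocyte-macrophage colony-stimulating factor, averaged 32.2 ± 3.32 CPM in anterior tamoxifen libraries and 64.9 ± 3.94 CPM in anterior controls (log2 -1.01, adjusted p = 7.68e-06, edgeR). With the trend removed the difference of Csf2ra was -0.57 (adjusted p = 4.1e-05, edgeR). Tlr7, an endosomal sensor of single-stranded RNA, averaged 0.793 ± 0.183 CPM in posterior tamoxifen libraries and 0.258 ± 0.0740 CPM in posterior controls (log2 1.62, adjusted p = 0.00571, edgeR). With the trend removed the difference of Tlr7 was 1.43 (adjusted p = 0.0137, edgeR). Tmem119, another gene of this list, averaged 146 CPM in anterior controls, where Csf1r averaged 16.9 CPM. Which cells of the palate express the genes of this list was not tested.

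Of the macrophage ligands and chemokines made by other cells 15 genes were tested. They had 1 rise and 1 fall in the anterior palate and 2 rises in the posterior palate. Over all genes 25.6% rose and 24% fell in the anterior palate, and 17.3% and 11.7% in the posterior palate. Kitl was the higher one in the anterior palate. Tgfb1, a growth factor that sustains some resident macrophages, averaged 28.1 ± 6.19 CPM in anterior tamoxifen libraries and 43.4 ± 2.74 CPM in anterior controls (SD, n = 3 each; log2 -0.63, adjusted p = 0.00157, edgeR). In the posterior palate Cxcl12, a chemokine of mesenchyme, averaged 251.2 ± 35.5 CPM after tamoxifen and 199 ± 7.99 CPM in controls (log2 0.34, adjusted p = 0.0468, edgeR). Removal of the trend left Cxcl12 at 0.14 without a call (adjusted p = 0.575), and Tgfb1 at -0.44 with one (adjusted p = 0.0152). Of 11 genes of antigen presentation on MHC class II, 0 were higher and 1 lower in the anterior palate and 0 were called in the posterior palate. The lower one was H2-DMa, at 8.74 ± 1.99 CPM in anterior tamoxifen libraries and 12.1 ± 1.11 CPM in anterior controls (log2 -0.46). It was not called with the trend removed (-0.10, adjusted p = 0.565, edgeR).

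Genes that mark other cell types of the palate were counted in the same edgeR fit without removal of the trend, where 49.7% of all genes were called in the anterior and 29% in the posterior palate. In the anterior palate tamoxifen libraries had higher calls for 6 and lower calls for 9 of 17 blood endothelial genes (median log2 -0.37), and in the posterior palate for 6 and 3 of them (median -0.04). After its removal these counts were 6 and 5 in the anterior and 5 and 0 in the posterior palate. Flt1, a receptor for vascular endothelial growth factor, averaged 33.1 ± 0.977 CPM in anterior tamoxifen libraries and 21.7 ± 1.93 CPM in anterior controls (SD, n = 3 each; log2 0.61, adjusted p = 2.97e-05, edgeR). Of 8 erythroid genes 2 were lower in the anterior palate and 0 called in the posterior one. Of 11 megakaryocyte and platelet genes, of which Pf4 is one, 2 were lower in the anterior palate and 1 in the posterior one. Of 8 neutrophil and monocyte granule genes 2 were lower in the anterior palate and 1 in the posterior one, of 7 lymphocyte genes 1 was lower in the anterior and 1 higher in the posterior palate, and of 5 mast cell and basophil genes 0 were called in either part. Of 5 tested melanoblast genes 2 were higher and 1 lower in anterior tamoxifen libraries, and 1 was higher in posterior ones. Apart from the blood endothelial and melanoblast genes, each of these lists had a smaller share of calls than all genes in both parts. With the trend removed 32.6% of all genes were called in the anterior and 17.9% in the posterior palate. The megakaryocyte, neutrophil, lymphocyte and mast cell lists then had 0 calls in either part. Of the erythroid genes 1 was then higher and 1 lower in the anterior palate and 0 were called in the posterior one. Of the melanoblast genes 1 was then higher in each part. The part of these cells in the members' differences was not tested.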

How the data were processed

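Total RNA of 12 palate libraries was sequenced by the submitters. The files deposited by the authors hold 1 raw count per gene symbol, 24391 symbols each. The build was mm9 and the tools HISAT2 and StringTie, per the submitters' processing notes; no label or file names their versions, the counting program, the annotation or the strand setting, so reads of overlapping or antisense genes and of close paralogues, such as the Fcgr genes, may be shared. Of counts from 1 to 100 per library, 57.1 to 60.1% were even. Totals were 39.4 to 73.0 M per library. Replicates of each pair differed by more than counting noise (chi-square per degree of freedom of at least 10.3) and were kept apart. No source says whether replicates are separate embryos or litters, so the p-values reflect only how far these samples spread, which may be technical.

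Counts were tested with edgeR 4.0.16 in R 4.3.3 (TMM scaling, filterByExpr by group, robust quasi-likelihood fit, 1 mean per group over 12 libraries, 8 residual degrees of freedom), and p-values were Benjamini-Hochberg adjusted over 15958 genes with a threshold of 0.05. Levels are TMM-scaled CPM. The length and GC trend was fitted per library as natural splines of both (4 degrees of freedom each) over genes with a mean log2 CPM above 1, using the longest GENCODE M21 transcript per symbol in GRCm38 (15852 of the tested genes, all 33 members), and was removed as an offset; no coordinates of that build were combined with the files. Alternatives were DESeq2 1.42.0, limma-voom (limma 3.58.1), other scalings (RLE, upper quartile), filters and threshold, a block for the replicate number, fits of only the 6 libraries compared, and fits without each single library. Scripts were tested on simulated data. The members, the other gene lists and the tests were chosen with earlier results of these data known. Every member could be named; per-library values are given for members called by edgeR in a treatment comparison on the counts as deposited and for the 6 with the highest mean CPM, and for Csf1r, Tyrobp and the C1q genes, which were added after their values were seen. Of other lists up to 2 genes per comparison with the smallest adjusted p were eligible. Further genes of those lists, named only for their levels or counts of 0, were chosen after their values were seen. With 3 against 3 libraries an exact test cannot give a p under 0.1, so levels carry no test of their own.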

Additional observations from a re-analysis of the deposited data

How the results depend on the processing

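Of 38 member differences, those called with or without the length and GC trend, 37 kept their direction and side of the threshold in DESeq2, 36 in limma-voom, 38 with RLE scaling, 37 with upper quartile scaling, 37 without a filter, 37 with the stricter filter (1 CPM in 3 libraries), and 35 with 6 libraries alone. Removal of the length and GC trend left 10 of the 38 as they were, and it turned the sign of 4 in the anterior palate: C1qa 0.56, C1qb 0.46, C1qc 0.41 and Coro1a 0.18. With the replicate block added these were 0.55, 0.44, 0.40 and 0.18, and with protein-coding transcripts, an alternative chosen after seeing the data, 0.57, 0.46, 0.41 and 0.17. The cause was not tested.

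With the trend removed, lower members in the anterior palate numbered 2 (2 with the block, 1 with protein-coding transcripts), higher members in the posterior palate 4 (4 and 4), lower members in anterior against posterior controls 0 (0 with protein-coding transcripts), and higher members in anterior against posterior tamoxifen libraries 3 (3 and 3). On the counts as deposited that last count was 1. It was 2 there in DESeq2, in limma-voom, with upper quartile scaling, with the replicate block and with 6 libraries alone. At an adjusted p under 0.01 on the counts as deposited it was 0, where 1839 of 15958 genes were called in either direction. The anterior palate then had 4 higher and 1 lower members, where 5927 genes were called. The posterior palate had 1 higher member, where 2215 genes were called. Leaving out 1 library at a time gave 6 to 14 higher and 1 to 5 lower members in the anterior palate. In the posterior palate it gave 1 to 8 and 0 to 1, and in the comparison of the 2 effects 0 to 0. Between the parts it gave 3 to 4 and 1 to 2 in controls, and 0 to 3 and 0 to 1 under tamoxifen. How many of all genes were called in the same fits is not given, so these ranges describe no trait of the members.

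The replicate numbers showed no pairing of the libraries. Deviations of same-numbered libraries correlated between -0.164 and 0.295, and those of libraries with unlike numbers between -0.416 and 0.306. These deviations still hold the length and GC trend, so they cannot decide whether libraries share an embryo or litter. With the number as a block, 36 of 38 differences kept their call, with 9 higher members in the anterior palate. The exceptions were Cd53 in the anterior palate (log2 0.76, not called) and Coro1a between tamoxifen parts (0.33, called). Depth limits Cd163 (0 to 43 counts per library), Cd48 (2 to 34) and Fcgr2b (6 to 47), for which a p that misses the threshold says little.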
